A study of Mus musculus with 56 samples.

Results

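The integrated stress and amino acid supply genes are 44 genes of the transcriptional programme that runs through the transcription factor ATF4. They comprise 6 transcription factors, 5 stress effectors, 7 enzymes of serine and one-carbon metabolism, 6 other amino acid enzymes, 7 amino acid transporters and 13 genes for cytosolic tRNA ligases or tRNA export. They are named by a list and not by a threshold on measured values, though earlier results of these data were known when the list was drawn up. Each was read from its brightest probe set that names a single gene. Of the 44, 42 could be tested on the 3' arrays, among 10916 genes left of 18194 after dim ones were removed. On the earlier gene-level arrays 40 were tested among 11292 genes of 18820. On the later ones 40 were tested among 13308 genes of 22180. Pycr1 had no such probe set on any array, Aars none on either gene-level array, Ddit3 none on the earlier and Slc6a9 none on the later ones. Cth on the 3' arrays and Trib3 on both gene-level arrays were below the brightness limit, so Pycr1 alone is without any value among those tested.

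The study measured RNA in cortical neurons from C57BL6 mouse embryos of embryonic day 13 to 15, grown for 7 days in vitro and then exposed to drug or vehicle for 24 or 72 h. The 56 arrays covered inhibitors of DNA topoisomerases, knockdown of the topoisomerases, an inhibitor of transcription elongation and oxidants, each with its own control. The 3' arrays (Mouse430_2) held a topotecan experiment at 300 nM and a separate ICRF-193 experiment at 3 µM, each with 3 treated and 3 vehicle arrays. The earlier gene-level arrays (MoGene-1_1-st-v1) held topotecan at 3, 30, 150, 500 and 1000 nM with 1 array each, 300 nM with 2, and 3 arrays of vehicle. All other experiments were on the later type (MoGene-2_1-st). On these, topotecan at 1 µM had 6 treated and 6 vehicle arrays. Irinotecan at 10 µM had 3 arrays and shared 2 vehicle arrays with 1 array of topotecan for 24 h and 1 of topotecan for 24 h then washout. Top1 shRNA, Top2b shRNA and control shRNA had 3 arrays each. DRB at 100 µM had 1 array and 1 vehicle, and H2O2 at 100 µM and paraquat at 10 µM had 1 array each and shared 2 vehicle arrays. Topotecan and irinotecan are camptothecin derivatives that trap topoisomerase I on DNA, ICRF-193 is a catalytic inhibitor of topoisomerase II, and DRB inhibits the kinase that releases paused RNA polymerase II. The exposure time of most arrays, the dose in the 24 h topotecan arrays, the shRNA vector and the sequences of the shRNAs are not given in the sources used here. No label says whether numbered arrays came from separate cultures, so p-values here measure the spread between arrays, which may be technical. The cultures were not sorted, and fewer cells of a type cannot be told apart from less RNA per cell.

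In the integrated stress response, kinases that sense amino acid shortage, unfolded protein in the endoplasmic reticulum, haem shortage or double-stranded RNA phosphorylate the translation factor eIF2. General translation then falls while the messenger RNA of Atf4 is translated better, and ATF4, often with C/EBP partners, binds C/EBP-ATF response elements. Its targets import amino acids, make serine, glycine and asparagine, and charge tRNAs, and with prolonged stress include CHOP (Ddit3), TRIB3 and CHAC1. In brain cultures the cystine transporter Slc7a11 and the serine synthesis enzyme Phgdh are known to be more abundant in astrocytes than in neurons.

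The core letters of that response element, TGATGNAA, were looked for on both strands of the RefSeq promoters (GRCm38.p6), which run from 250 bases before to 50 bases after a gene's start. Of the 35 members with a promoter sequence, 13 held it, 37.1%, against 4.51% of the 27025 genes with a promoter and 3.97% of all 32851 promoters. The 13 were Aars, Asns, Atf3, Chac1, Gars, Got1, Iars, Nupr1, Pycr1, Slc7a11, Tars, Trib3 and Yars. The stretches printed here belong to the members that were lower with ICRF-193 and hold the match before the start. Each is given 5′ to 3′ on the strand of its gene, in lower case, with the match in capitals; a match on the other strand reads TTNCATCA.
Slc7a11, chr3:50443629-50443703, minus strand: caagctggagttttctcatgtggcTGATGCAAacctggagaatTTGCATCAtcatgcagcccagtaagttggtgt
Chac1, chr2:119351025-119351080, plus strand: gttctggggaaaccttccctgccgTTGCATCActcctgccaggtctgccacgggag
Aars, chr8:111033706-111033761, plus strand: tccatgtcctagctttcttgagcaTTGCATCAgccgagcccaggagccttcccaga
Got1, chr19:43524676-43524731, minus strand: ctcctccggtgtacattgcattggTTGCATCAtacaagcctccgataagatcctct
Asns, chr6:7693210-7693256, minus strand: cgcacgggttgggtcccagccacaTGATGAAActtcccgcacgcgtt
Gars, chr6:55037947-55038000, plus strand: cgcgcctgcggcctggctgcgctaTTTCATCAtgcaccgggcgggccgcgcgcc
Tars, chr15:11399659-11399697, minus strand: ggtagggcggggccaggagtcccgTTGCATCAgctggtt
Slc7a11 held a pair of matches, 66 and 47 bases before its start, one on each strand. The other 6 held 1 match each before the start, from 15 bases before the start in Tars to 193 bases in Chac1. A match is a description of the letters and not a measured binding site.

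Whole-array values set the frame for what follows. The mean intensity of an array ran from 571 to 698.3 on the 3' arrays, from 388.5 to 401.2 on the earlier and from 137.8 to 211 on the later arrays. No intensity was 0. Replicate 1 of each shRNA group had a higher mean intensity than replicates 2 and 3. Vehicle 4 of the 1 µM topotecan experiment lay 46.2% of the way from the vehicle to the topotecan group mean over genes of up to 100 kb. In the dose series, vehicle arrays 1 and 2 and the 1000 nM array stood apart from the rest, with more astrocyte signal. Counts that rest on these arrays are given with and without them.

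**Figure D1:**
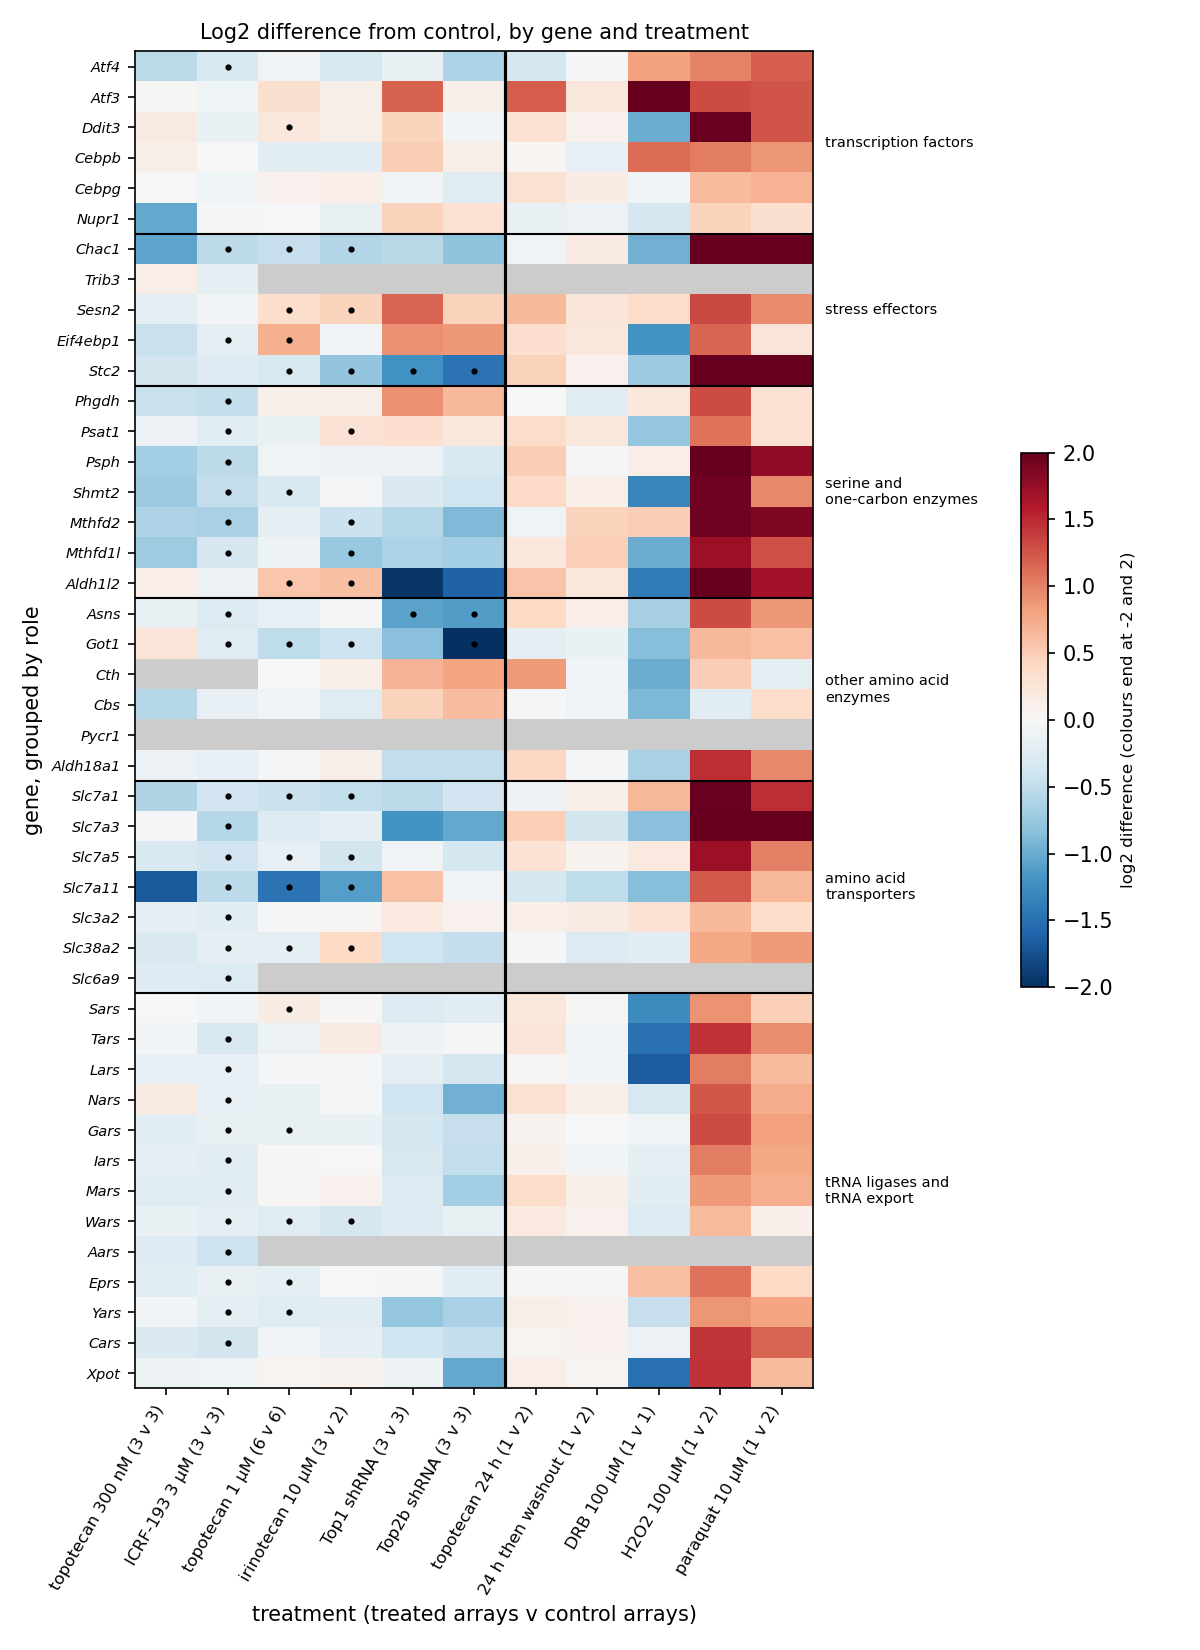
Log2 difference of each member (rows, by role) between treated and control arrays of each experiment (columns, with the number of treated and control arrays); dots mark adjusted p under 0.05 in the replicated comparisons, the vertical line parts them from the single arrays, and grey marks members not tested. The ICRF-193 column is below 0 for all 42 members tested, and the H2O2 column is higher by 1.5-fold for 37 of 40.

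With ICRF-193, most amino acid transporters, serine and one-carbon enzymes and tRNA ligases were lower by small amounts, while most transcription factors did not pass. Of the 42 members tested, 29 were lower and 0 higher at a Benjamini-Hochberg adjusted p under 0.05 (limma, 2-sided, adjusted over all 10916 genes), and all 42 differences were below 0. Among all genes, 18.6% passed in either direction, 10.3% lower and 8.29% higher, and 49% were below 0. The median log2 difference was -0.22 over the members and 0.003 over all genes. Of the probe sets of the 42 members, 76 reached the brightness limit. All 76 lay below 0 and 44 of them passed, and dimmer probe sets were left out.

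Of the transcription factors, 1 of 6 passed. Atf4 measured 12.08, 12.12 and 12.07 on the log2 intensity scale in the 3 ICRF-193 arrays and 12.44, 12.40 and 12.38 in the 3 vehicle arrays. The groups were apart, by -0.31 ± 0.04 (SE; adjusted p = 0.00179 in limma), a 1.24-fold lower level. Ddit3 (-0.13, adjusted p = 0.253), which encodes CHOP, and Atf3 (-0.09, adjusted p = 0.362) had overlapping groups, as had Cebpb, Cebpg and Nupr1.

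Of the stress effectors, 2 of 5 passed. Chac1, whose product degrades glutathione, measured 9.80, 9.80 and 9.73 with ICRF-193 and 10.31, 10.37 and 10.20 with vehicle. Every treated array was below every vehicle array, and the difference was -0.52 ± 0.05 (adjusted p = 0.00104, limma). Eif4ebp1, a repressor of cap-dependent translation, was lower by a difference of -0.20 (adjusted p = 0.0478). Trib3, a pseudokinase that restrains ATF4 signalling (-0.17, adjusted p = 0.135), the secreted glycoprotein gene Stc2 (-0.26, adjusted p = 0.0592) and the TORC1 regulator Sesn2 (-0.06) did not pass.

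Serine and one-carbon enzymes held the largest change, and 6 of 7 were lower. Mthfd2, the mitochondrial enzyme that oxidises methylene-tetrahydrofolate, measured 9.34, 9.40 and 9.24 with ICRF-193 and 10.05, 10.05 and 9.83 with vehicle. Psph, which takes the last step of serine synthesis, measured 9.44, 9.42 and 9.56 against 9.98, 10.04 and 9.97. Phgdh, which takes its first step, measured 10.60, 10.47 and 10.50 against 11.10, 10.94 and 10.95. In all 3 genes the groups were apart. The differences were -0.65 ± 0.07 for Mthfd2, -0.53 ± 0.05 for Psph, which had the smallest adjusted p of the members (0.000728, limma), and -0.48 ± 0.06 for Phgdh. Shmt2, the mitochondrial serine hydroxymethyltransferase (-0.48), the formate-releasing enzyme Mthfd1l (-0.33) and the aminotransferase Psat1 (-0.22) were lower too, while Aldh1l2 (-0.12, adjusted p = 0.0886) did not pass.

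Among other amino acid enzymes, 2 of 4 were lower. Asparagine synthetase, Asns, measured 11.76, 11.77 and 11.71 with ICRF-193 and 12.08, 12.06 and 11.94 with vehicle, with no overlap and a difference of -0.28 ± 0.05 (adjusted p = 0.00723, limma). The aspartate aminotransferase Got1 was lower by a difference of -0.25. Cbs, of the transsulfuration path (-0.17), and Aldh18a1, of proline synthesis (-0.16), did not pass.

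All 7 amino acid transporters tested were lower. The cationic amino acid carrier Slc7a3 measured 10.79, 10.61 and 10.57 against 11.38, 11.23 and 11.06, a difference of -0.57 ± 0.09. Slc7a11, the cystine-glutamate exchanger, measured 6.81, 6.61 and 6.75 against 7.27, 7.32 and 7.16, a difference of -0.53 ± 0.06 (adjusted p = 0.00202, limma). Neither gene's groups overlapped. Slc7a11 was read from the brighter of its 2 probe sets and was not called with their mean. The arginine carrier Slc7a1 (-0.39), the leucine carrier Slc7a5 (-0.38), its heavy chain Slc3a2 (-0.22), the glutamine carrier Slc38a2 (-0.19) and the glycine carrier Slc6a9 (-0.27) completed the group.

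Of the tRNA ligases and the exporter Xpot, 11 of 13 were lower, with the alanine ligase Aars first. It measured 11.24, 11.25 and 11.14 against 11.68, 11.59 and 11.61, a difference of -0.42 ± 0.05 (adjusted p = 0.00131, limma), and its groups were apart. The cysteine ligase Cars (-0.36) and the threonine ligase Tars (-0.32) followed. The remaining ligases that passed lay between -0.23 (Mars) and -0.14 (Eprs), and Sars (-0.05) and Xpot (-0.09) did not pass.

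**Figure D2:**
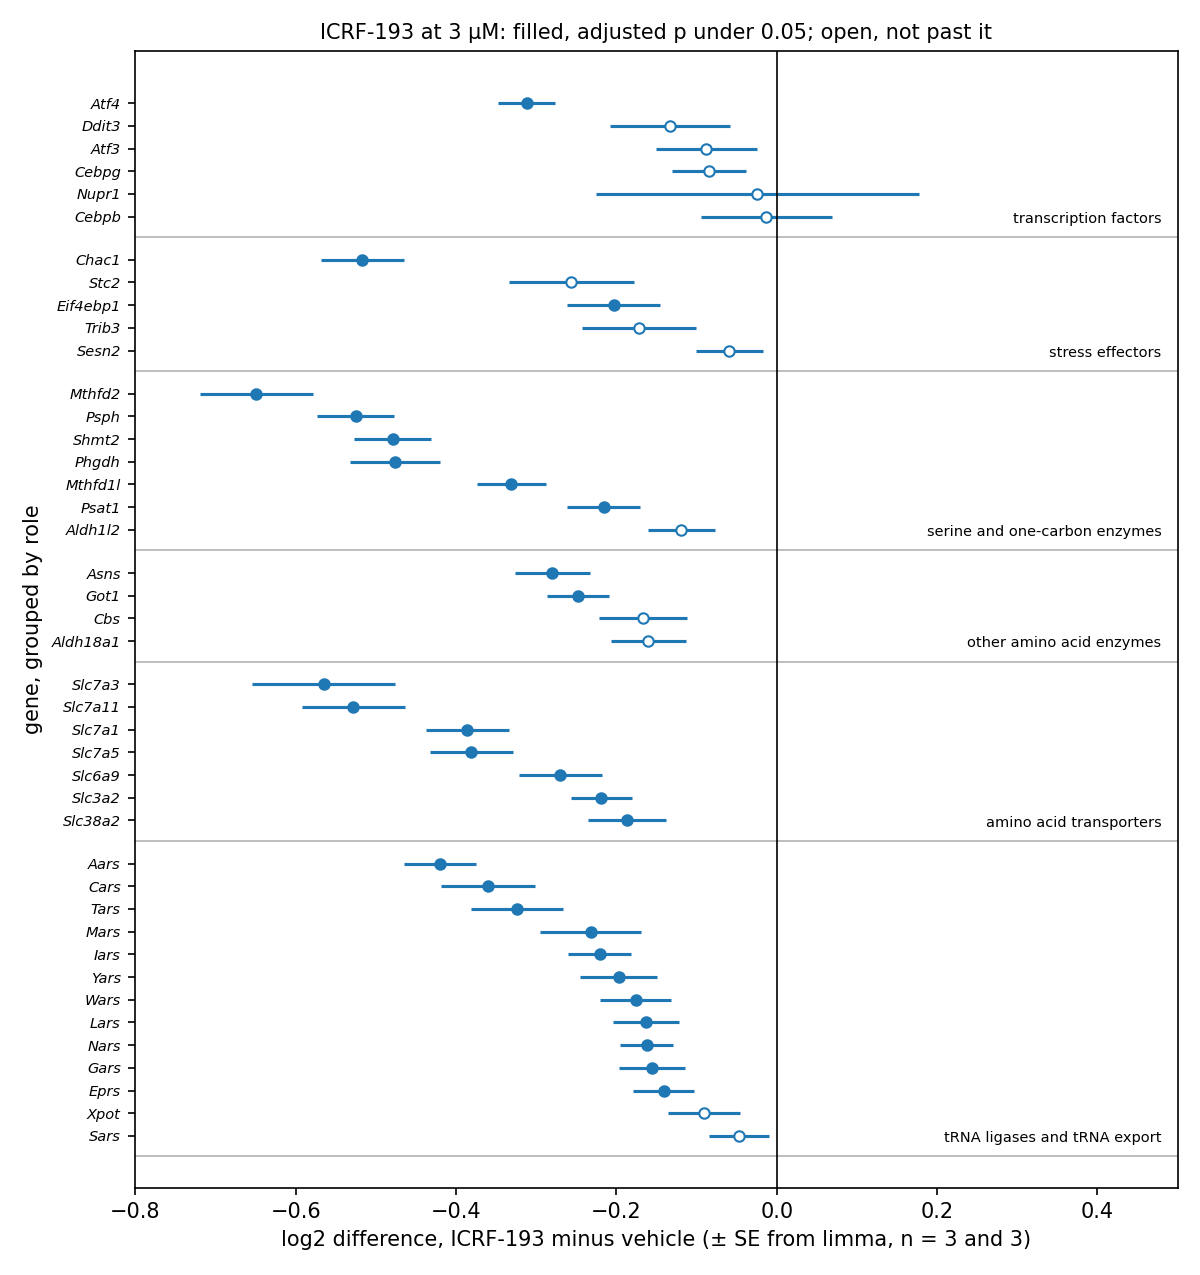
Log2 difference, ICRF-193 at 3 µM minus vehicle, for the 42 members tested, with the standard error from limma (n = 3 and 3 arrays) and grouped by role. Filled points passed an adjusted p of 0.05: all 7 transporters, 6 of 7 serine and one-carbon enzymes and 11 of 13 genes for tRNA ligases and export, but 1 of 6 transcription factors.

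Related pathways were examined beside the members. Of the eIF2 kinases, phosphatase subunits and eIF2B, 0 of 12 were higher and 3 lower, namely Gcn1, an activator of the amino acid sensor (-0.19), the stress-induced phosphatase subunit Ppp1r15a (-0.17) and the haem-sensing kinase Eif2ak1 (-0.17). Of 20 other genes linked to ATF4 or CHOP, 2 were higher and 5 lower, among them the transporter Slc38a1 (-0.33), the alanine aminotransferase Gpt2 (-0.29), Atf5 (-0.22) and Ndrg1 (0.26). Of 20 genes of the unfolded protein response of the endoplasmic reticulum, 5 were lower, led by Herpud1 (-0.33) and Pdia4 (-0.29). Of the other cytosolic ligases and their scaffold genes, 2 of 10 were lower, the ligase Vars (-0.22) and the scaffold gene Aimp2 (-0.16). Of the mitochondrial ligases 1 of 12 was lower, Iars2 (-0.16). Of 11 other serine, glycine and folate genes, 2 were higher, Mthfd2l (0.28) and the purine enzyme Atic (0.28), and 1 lower, Gcsh (-0.16). The medians of these lists ran from -0.10 to 0.01, and whether they differed from the members was not tested. Members with the promoter letters were lower in 9 of 12 cases (median -0.23), those whose promoter lacks them in 13 of 22 (median -0.22) and those with no promoter sequence in 7 of 8 (median -0.19).

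Astrocyte markers were lower with ICRF-193 as well. Of 18 markers, 14 were lower (median -0.42), and their summed intensity ran from 31471 to 34734 with the drug and from 42425 to 47401 with vehicle. Of 12 pan-neuronal markers, 3 were higher and 1 lower, with sums of 68333 to 71553 against 64855 to 68427. No marker was at 0 on any array, and their part in the result was not tested. Arrays with the same number deviated together in this experiment. With the replicate number as a block, 33 members were lower, with Ddit3, Trib3, Stc2 and Aldh18a1 added, beside 13.8% of all genes lower. With no filter on dim genes, 20 of 43 members were lower, beside 3.63% of all genes. Leaving out 1 array gave 19 to 30 lower members, beside 4.86% of all genes lower for the 19, when replicate 2 of ICRF-193 was left out, and 12.7% for the 30, when vehicle 3 was left out.

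At 300 nM of topotecan the arrays of a group were more scattered, and 0 of 42 members passed in limma. At an unadjusted p under 0.05 there were 10 members, all lower, beside 21.6% of all genes in either direction and 9.81% lower. After adjustment 4.4% of all genes passed, 1.3% higher and 3.1% lower. The median was -0.21 over the members and 0.063 over all genes, and 33 members lay below 0. Slc7a11 measured 5.74, 6.71 and 7.06 with topotecan and 8.40, 8.62 and 7.51 with vehicle. Every treated array was below every vehicle array, the difference was -1.68 ± 0.40, and the adjusted p of 0.0639 in limma missed the threshold. Cbs measured 7.54, 7.96 and 7.71 against 8.25, 8.38 and 8.31, again with no overlap, and had the smallest adjusted p of the members, 0.0616, for a difference of -0.58 ± 0.14.

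Chac1 and Atf4 were low on 2 of the 3 topotecan arrays. Chac1 measured 10.51, 8.70 and 8.74 with topotecan and 10.51, 10.18 and 10.41 with vehicle. Atf4 measured 12.56, 11.88 and 12.04 against 12.77, 12.64 and 12.67. Replicates 2 and 3 of topotecan were low for both genes, while replicate 1 reached the highest vehicle array for Chac1 and lay just under the vehicle arrays for Atf4. The differences were -1.05 ± 0.46 (adjusted p = 0.243, limma) for Chac1 and -0.54 ± 0.18 (adjusted p = 0.151) for Atf4. Without that replicate, 4 members were lower, Atf4, Chac1, Mthfd2 and Shmt2, beside 2.46% of all genes. Shmt2 (-0.73), Mthfd1l (-0.71), Psph (-0.68), Mthfd2 (-0.62) and Slc7a1 (-0.60) had groups that did not overlap and adjusted p-values from 0.0771 to 0.184. Eprs (-0.235) and Sesn2 (-0.195) did not overlap either, while Nars (0.173) lay above every vehicle array. None of these passed. The share of all genes without overlap was not counted, so the lack of overlap says nothing about the members as a set. Phgdh (-0.45) and Asns (-0.15) overlapped, as did Atf3 (0.03), Ddit3 (0.18) and Trib3 (0.14). Astrocyte markers were lower in 7 of 18 cases (median -0.93), with sums of 28831 to 36670 against 53336 to 61821, and their part was not tested.

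Topotecan and ICRF-193 were set against each other on the same array type, with separate vehicles and at doses that differ. The difference between their effects passed for 0 of 42 members in limma, beside 3.6% of all genes, 1.19% higher and 2.41% lower. At an unadjusted p under 0.05 there were 4 members, beside 18.1% of all genes. That does not show that the drugs act alike on these genes: the standard error of a topotecan difference reached 0.53 (Slc7a3). Across the 42 members the differences of the 2 experiments had a Pearson r of 0.53, beside 0.59 across 10916 genes. Genes are not independent replicates.

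At 1 µM of topotecan, with 6 arrays a group, the members moved in both directions. Of 40 members tested, 5 were higher and 12 lower, beside 18.3% higher and 20.8% lower among all genes (39.1% in either direction), so the share of members called, 42.5%, was near that of all genes. The median difference was -0.09 over the members and -0.006 over all genes. Transcription factors held 1 higher and 0 lower of 6, stress effectors 2 and 2 of 4, serine and one-carbon enzymes 1 and 1 of 7, other enzymes 0 and 1 of 5, transporters 0 and 4 of 6, and ligases with Xpot 1 and 4 of 12.

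Slc7a11 had the largest change of the members. It ran from 5.14 (median 5.52) to 6.23 in the topotecan arrays and from 6.49 (median 7.02) to 7.56 in the vehicle arrays. The groups did not overlap, and the difference was -1.47 ± 0.21 (adjusted p = 8.48e-05, limma), a 2.77-fold lower level. This rests on the brighter of its 2 probe sets, the other being below the brightness limit. With the mean of the probe sets of a gene, 39 members were tested. Slc7a11 then fell under the brightness limit and was not tested. Slc7a1 ran from 7.02 (median 7.44) to 7.56 with topotecan and from 7.72 (median 7.79) to 7.98 with vehicle, with no overlap and a difference of -0.44 ± 0.09. Shmt2 (-0.30) and the tryptophan ligase Wars (-0.24) were the other lower members without overlap. Got1 (-0.51), Chac1 (-0.46), Stc2 (-0.33), Yars (-0.24), Eprs (-0.18), Slc38a2 (-0.18), Slc7a5 (-0.17) and Gars (-0.15) were lower with some overlap. How many of all genes had groups without overlap was not counted here either.

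The higher members were led by Eif4ebp1 (0.72 ± 0.12, adjusted p = 0.000249, limma) and by Aldh1l2, a mitochondrial folate dehydrogenase. Aldh1l2 ran from 6.46 (median 6.60) to 6.79 with topotecan and from 5.83 (median 6.06) to 6.28 with vehicle, the one member whose treated arrays all lay above the vehicle arrays, by 0.55 ± 0.08. Sesn2 (0.36), Ddit3 (0.22) and the serine ligase Sars (0.15) rose as well. Atf4 (-0.07, adjusted p = 0.428), Atf3 (0.32, adjusted p = 0.0537), Asns (-0.16, adjusted p = 0.177) and Phgdh (0.09, adjusted p = 0.621) did not pass. Without replicate 4 of both groups, chosen after seeing the data, 5 members were higher and 16 lower, beside 20.6% and 24.9% of all genes. Atf3 (0.40) then passed and Sars did not, and Asns (-0.27), Slc7a3 (-0.46), Nars (-0.20) and Cars (-0.17) joined the lower members.

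In the pathways around them, 3 of 13 eIF2 genes were higher, among them Ppp1r15a (0.20) and the endoplasmic reticulum kinase Eif2ak3 (0.16), and 1 lower. Other genes linked to ATF4 or CHOP were split, 6 higher and 4 lower of 21, from the death receptor gene Tnfrsf10b (0.52) to Ndrg1 (-0.66). Mitochondrial ligases were lower in 5 of 15 cases, led by Fars2 (-0.32) and Nars2 (-0.30). The unfolded protein response list held Atf6 (-0.40) lower and Pdia3 (0.16) higher of 19. Astrocyte markers were lower in 14 of 17 cases and higher in 1 (median -0.96), with sums of 3421 to 4057 against 6625 to 7446, and pan-neuronal markers lower in 8 of 12 cases and higher in 1, with sums of 15018 to 19137 against 17732 to 22523. Their part in these differences was not tested.

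Irinotecan at 10 µM gave 4 higher and 9 lower members of 40, beside 16.5% higher and 11.7% lower among all genes (28.2% in either direction). The median was -0.04 over the members and 0.068 over all genes. Slc7a11 measured 5.15, 5.61 and 5.41 with irinotecan and 6.80 and 6.19 with vehicle, all treated arrays being lower, a difference of -1.10 ± 0.20 (adjusted p = 0.00748, limma). With the mean of its 2 probe sets Slc7a11 fell under the brightness limit and was not tested. Stc2 measured 5.67, 5.71 and 5.34 against 6.29 and 6.44, with no overlap, and its difference of -0.79 ± 0.13 had the smallest adjusted p of the members (0.0047, limma). Mthfd1l (-0.76), Chac1 (-0.58), Slc7a1 (-0.50), Mthfd2 (-0.44), Got1 (-0.41), Slc7a5 (-0.36) and Wars (-0.33) were lower as well. Aldh1l2 measured 6.88, 6.93 and 6.71 against 6.32 and 6.16, a difference of 0.60 ± 0.10 (adjusted p = 0.00511, limma), again with no overlap. Sesn2 (0.44), Slc38a2 (0.39) and Psat1 (0.29) were the other higher members. Atf4 (-0.32, adjusted p = 0.0959), Atf3 (0.11), Ddit3 (0.11), Asns (-0.04) and Phgdh (0.11) did not pass.

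The 2 vehicle arrays limit this comparison. Leaving out 1 array gave 1 to 3 higher and 3 to 10 lower members, with 1 and 3, beside 7.17% and 7.81% of all genes, when vehicle 2 was left out, a fit in which the lone vehicle array is assumed to vary like the treated arrays. With no filter on dim genes, 2 were higher and 5 lower, beside 4.85% and 5.19% of all genes. Other genes linked to ATF4 or CHOP were split, 3 higher and 3 lower of 21, with the death gene Bbc3 (0.59) and Map1lc3b (0.47) higher and Ddit4 (-0.36) lower. The unfolded protein response list held Dnajb9 (0.29) and Ern1 (0.25) higher and Atf6 (-0.48) lower of 19. Other serine, glycine and folate genes were higher in 3 of 15 cases, the thymidylate synthase Tyms (0.63), the serine carrier Sfxn1 (0.40) and Gart (0.30), and lower in 1, Mthfd2l (-0.29). Astrocyte markers were lower in 7 of 17 cases, with sums of 2945 to 3175 against 3362 to 3970, and interneuron markers lower in 7 and higher in 2 of 10; their part was not tested.

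Topotecan at 1 µM and irinotecan at 10 µM differ in dose and are given side by side with no test between them. Slc7a11 differed by -1.47 and -1.10, Chac1 by -0.46 and -0.58, Got1 by -0.51 and -0.41, Slc7a1 by -0.44 and -0.50, Aldh1l2 by 0.55 and 0.60, and Sesn2 by 0.36 and 0.44. Eif4ebp1 differed by 0.72 and -0.07, and Slc38a2 by -0.18 and 0.39. The experiments had separate vehicles, and across the 40 members their differences had a Pearson r of 0.71, beside 0.76 across 13308 genes.

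**Figure D3:**
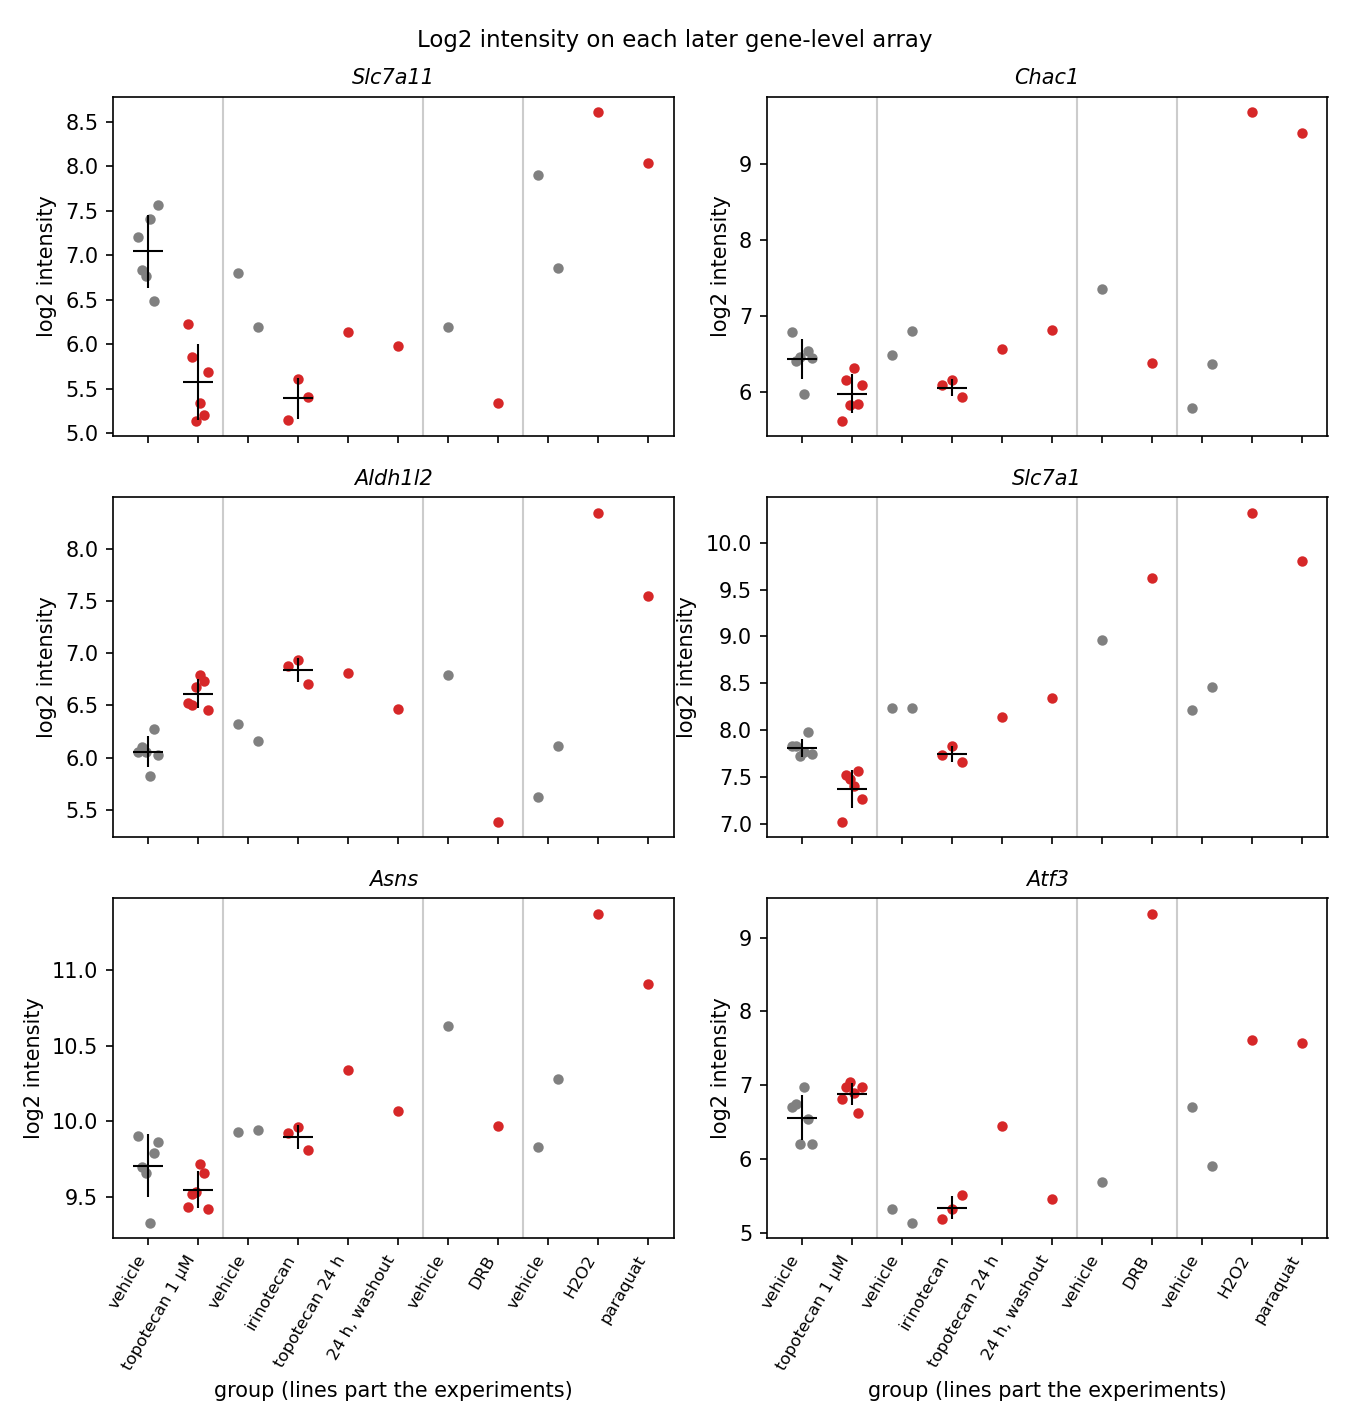
Log2 intensity on each later gene-level array for 6 members, with vehicle arrays in grey and treated arrays in red; horizontal marks and bars are the mean and SD where a group has 3 arrays or more, and lines part the experiments. Slc7a11 is lower and Aldh1l2 higher with topotecan at 1 µM and with irinotecan, and all 6 members are above both vehicle arrays with H2O2 and with paraquat.

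In the knockdown arrays Asns and Stc2 were lower with both shRNAs and Got1 with Top2b shRNA, while neither targeted gene passed the test. The targeted genes were examined first. Top1 measured 7.62, 8.39 and 8.29 in the Top1 shRNA arrays and 8.98, 8.46 and 8.55 in the control shRNA arrays, lower in each but by little in replicates 2 and 3 (difference -0.57, adjusted p = 0.193, limma). Top2b measured 8.62, 6.87 and 6.80 in the Top2b shRNA arrays and 9.30, 8.39 and 8.17 in the control arrays, where replicate 1 of the knockdown was above both lower controls (difference -1.19, adjusted p = 0.22).

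With Top1 shRNA, 2 of 40 members were lower and 0 higher, beside 5.79% lower, 6.08% higher and 11.9% in either direction among all genes. With Top2b shRNA, 3 were lower and 0 higher, beside 1.12% lower, 1.99% higher and 3.11% in either direction. Asns measured 9.37, 8.67 and 9.08 with Top1 shRNA, 9.20, 8.95 and 8.85 with Top2b shRNA, and 10.22, 10.12 and 10.00 with control shRNA. Stc2 measured 5.52, 6.24 and 5.21 with Top1 shRNA, 5.89, 5.17 and 5.10 with Top2b shRNA, and 7.23, 6.67 and 6.71 with control shRNA. For both genes every knockdown array was below every control array. Asns differed by -1.07 ± 0.23 (adjusted p = 0.0189, limma) and -1.11 ± 0.23 (adjusted p = 0.0353), and Stc2 by -1.22 ± 0.33 and -1.48 ± 0.33. The comparisons share the 3 control arrays. The share of members lower with Top1 shRNA was 5%, near that of all genes.

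Got1 separated further with Top2b shRNA. It measured 9.17, 8.14 and 8.19 there, 10.02, 9.56 and 10.02 with Top1 shRNA and 10.44, 10.82 and 10.84 with control shRNA. The difference from control was -2.20 ± 0.30 (adjusted p = 0.0166, limma) with Top2b shRNA and -0.83 ± 0.30 (adjusted p = 0.103) with Top1 shRNA. Set against each other directly, the knockdowns differed for 0 of 40 members in limma, and for 0% of all genes. At an unadjusted p under 0.05 there were 2 members, beside 6.06% of all genes, so Got1 is not shown to differ between them. Sesn2 (1.17), Eif4ebp1 (0.91) and Phgdh (0.91) with Top1 shRNA and Aldh1l2 (-1.95 with Top1 shRNA, -1.62 with Top2b shRNA) had sizeable differences that did not pass. Chac1 (-0.55 and -0.80), Atf4 (-0.15 and -0.63), Atf3 (1.18 and 0.10), Ddit3 (0.44 and -0.05) and Slc7a11 (0.58 and -0.06) did not pass either.

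The shRNA arrays limit these counts. Arrays with the same number deviated together for Top2b shRNA and its controls, though replicate 2 did so as much with another number (0.40 beside 0.39). With the replicate number as a block, 1 member was higher and 7 lower with Top2b shRNA, beside 5.58% and 4.58% of all genes. In replicates 2 and 3 alone, 9 members were higher and 13 lower with Top1 shRNA, beside 20.1% and 24.5% of all genes. There 4 were higher and 14 lower with Top2b shRNA, beside 10.1% and 12.5%. Leaving out control shRNA replicate 2 gave 0 lower members in both comparisons, beside 1.44% of all genes lower with Top1 shRNA and 0% with Top2b shRNA. Without replicate 1 of Top1 shRNA, 3 were lower with Top1 shRNA, beside 12% of all genes. Without replicate 1 of Top2b shRNA, 5 were lower with Top2b shRNA, beside 1.13%. With no filter on dim genes 0 were lower in both, beside 1.07% of all genes with Top1 shRNA and 0% with Top2b shRNA. In replicates 2 and 3 the direct comparison of the knockdowns gave 8 members higher with Top1 shRNA and 0 lower, beside 6.43% and 7.75% of all genes. Pan-neuronal sums ran from 9985 to 15208 with Top1 shRNA, from 12913 to 17342 with Top2b shRNA and from 21092 to 22043 with control shRNA. Fibroblast and meningeal markers were higher in 6 of 9 and 4 of 9 cases, and their part in the member differences was not tested. Related genes that passed were the RNA-sensing eIF2 kinase Eif2ak2 (1.78), the disulfide isomerase Pdia3 (0.66) and Vldlr (-1.40) with Top1 shRNA, and the cytosolic folate enzyme Mthfd1 with both (1.28 and 1.08).

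In the topotecan dose series, members fell with dose among the dosed arrays, while the trend that includes the vehicle arrays passed for none. Over all 10 arrays a trend with dose passed for 0 of 40 members in limma, beside 3.45% of all genes, 1.51% higher and 1.95% lower. At an unadjusted p under 0.05 there were 3 members, beside 19.1% of all genes. Among the 7 dosed arrays alone, 8 members fell, beside 2.67% of all genes falling and 4% in either direction. These were Chac1 (slope -0.36 ± 0.08 a dose step, adjusted p = 0.0498, limma), Mthfd2 (-0.30), Atf3 (-0.21), Slc7a1 (-0.19), Atf4 (-0.16), Mthfd1l (-0.16), Shmt2 (-0.14) and Cars (-0.13). Without the 1000 nM array, an alternative added after seeing the data, the dosed arrays gave 12 falling members, beside 4.56% of all genes, and these held all 8 with Eif4ebp1, Sesn2, Slc7a3 and Stc2 added. The trend that includes the vehicle arrays then gave 2 lower members, Eif4ebp1 and Sesn2, beside 2.6%. Chac1 measured 8.82 at 3 nM, 8.67 at 30, 8.38 at 150, 8.29 and 8.08 at 300, 8.06 at 500 and 6.64 at 1000 nM. Atf4 measured 8.94, 8.80, 8.74, 8.64 and 8.59, 8.54 and 7.97 over the same doses. Both were lower at each step of dose, and lowest at 1000 nM.

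Vehicle arrays did not form one level. Chac1 measured 7.24, 7.42 and 8.94 in vehicle arrays 1, 2 and 3, and Atf4 8.37, 8.38 and 9.03. Arrays 1 and 2 were below every dose up to 500 nM for both genes, and array 3 above every dose. Both lay below array 3 for 32 of 40 members and 43.6% of all genes. Against the mean of the 3 vehicles the members' median difference was 0.26 at 3 nM, 0.25 at 30, 0.13 at 150, 0.09 at 300, 0.02 at 500 and -0.24 at 1000 nM, with an SD of 0.24 between vehicle arrays. Against vehicle 3 alone, an alternative added after seeing the data, it was -0.03, -0.05, -0.18, -0.18, -0.21 and -0.47. Against vehicles 1 and 2 alone, the converse choice, it was 0.392, 0.358, 0.229, 0.187, 0.175 and -0.142. Against the vehicle mean, members higher and lower by 1.5-fold numbered 5 and 2 at 3 nM (1.41% and 6.46% of all genes), 5 and 3 at 30 nM (1.63% and 7.69%) and 3 and 4 at 150 nM (1.5% and 8.66%). They numbered 3 and 5 at 300 nM (1.49% and 8.33%), 2 and 5 at 500 nM (2.34% and 8.74%) and 2 and 6 at 1000 nM (4.97% and 5.87%). Against vehicle 3 alone, 0 members were higher and 0 lower at 3 and at 30 nM. They numbered 0 and 3 at 150 nM (0.416% and 0.832% of all genes) and 0 and 3 at 300 nM (0.399% and 1.19%). At 500 nM they were 0 and 5 (0.965% and 2.21%), and at 1000 nM 3 and 16 (13.4% and 7.99%). Against vehicles 1 and 2 alone they went from 9 and 4 at 3 nM (3.85% and 11.5%) to 2 and 5 at 1000 nM (3.71% and 7.84%). The order of the doses by median was the same against each of these references, and the sign at 3 to 500 nM depended on the vehicle arrays used.

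Astrocyte sums were 24310 and 24864 in vehicle arrays 1 and 2, 6305 in array 3, 4678 to 7741 at doses up to 500 nM and 12722 at 1000 nM. Sums of proliferation markers were 7909, 7988 and 1887 in the vehicle arrays and 4259 at 1000 nM. Their part in the member values was not tested. At 1000 nM 30 of 40 members were below every other dose (38.4% of all genes), and 23 were below all 3 vehicle arrays (27.6%). Slc7a11 ran the other way, with 9.83 at 1000 nM, above every other array of the series, where it measured 8.46 to 9.05. At 500 nM 36 of 40 members were below their 3 nM value, against 43.4% of all genes. Atf4, Chac1, Eif4ebp1, Mthfd2, Slc3a2 and Slc7a1 were lower at each step from 3 to 500 nM, 6 of 40 beside 3.77% of all genes.

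**Figure D4:**
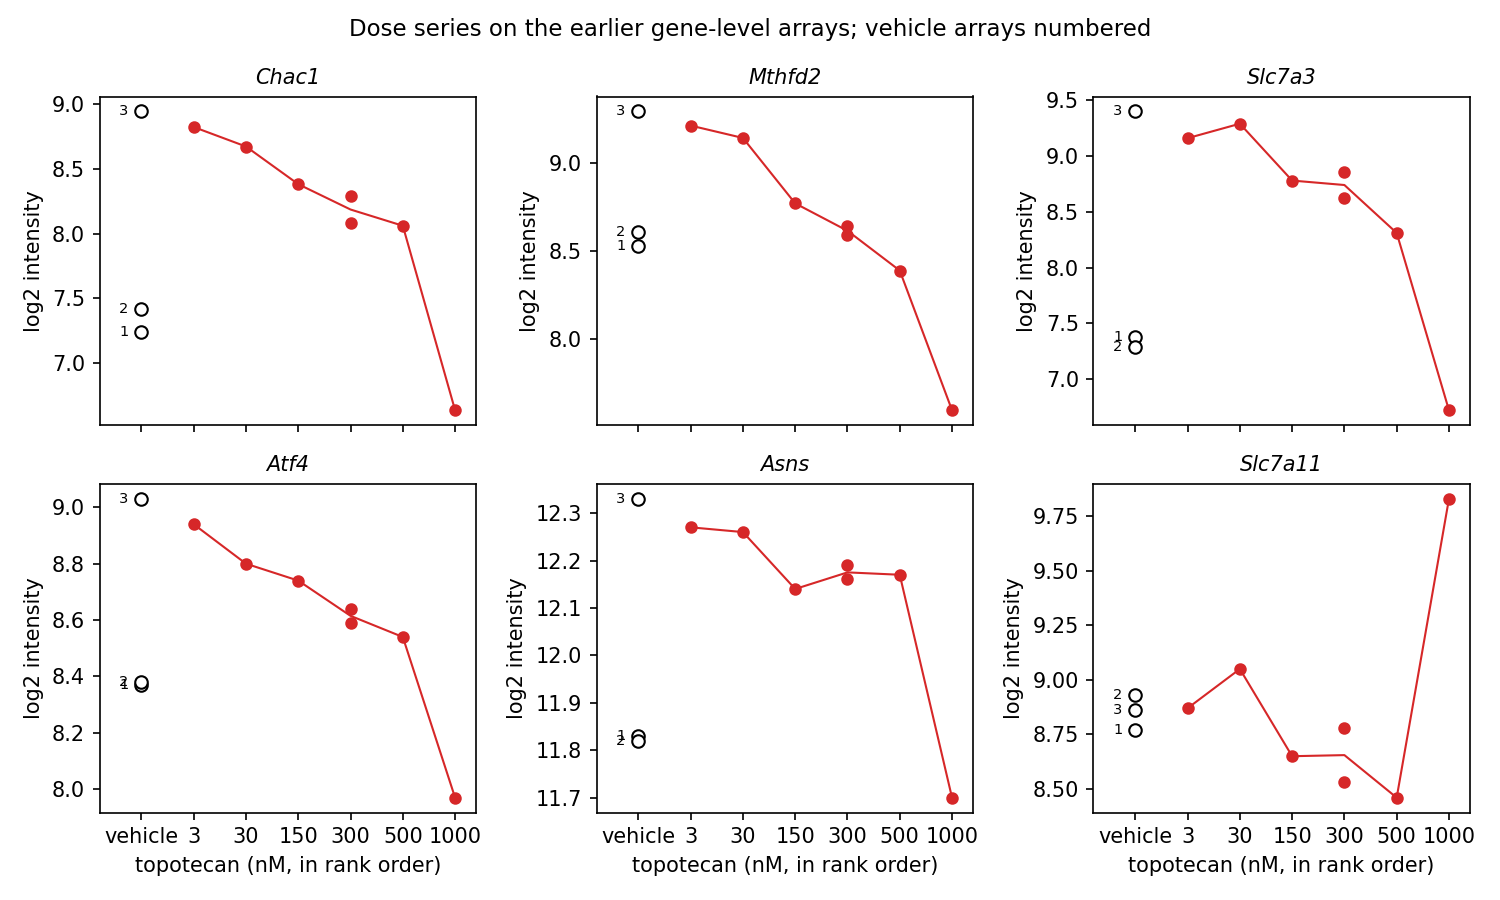
Log2 intensity of 6 members on each array of the dose series, with numbered vehicle arrays as open circles, dosed arrays in red in rank order of dose (nM), and a line through the mean at each dose. Chac1 falls from 8.82 at 3 nM to 6.64 at 1000 nM while vehicle arrays 1 and 2 sit at 7.24 and 7.42, and Slc7a11 is highest at 1000 nM.

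Nearly the whole programme was higher with the oxidants, on 1 array each. With H2O2, 37 of 40 members were higher by at least 1.5-fold than the mean of the 2 vehicle arrays and 0 lower, beside 7.93% of all genes higher and 5% lower. With paraquat, which generates superoxide in cells, 30 were higher and 0 lower, beside 13.7% and 7.15%. The median differences were 1.27 and 0.83, against 0.079 and 0.117 over all genes. These are values of single arrays with no replicate check and no test, and the treatments share their vehicles.

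Chac1 measured 9.69 with H2O2, 9.41 with paraquat and 5.79 and 6.37 in the vehicle arrays. Its differences of 3.61 and 3.33 ranked first among 13308 genes on both arrays. Slc7a3 measured 8.84 and 7.77 against 5.03 and 6.35, and ranked second for H2O2 at a difference of 3.15. Aldh1l2 measured 8.34 and 7.55 against 5.63 and 6.11, Psph 8.27 and 7.77 against 6.08 and 5.91, and Stc2 8.04 and 8.03 against 5.51 and 6.05. These were the 5 largest member differences with H2O2, and both oxidant arrays were above both vehicles for each. With paraquat the 5 largest were Chac1, Stc2 (2.25), Slc7a3 (2.07), Mthfd2 (1.86) and Psph (1.77).

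The transcription factors were higher too. Atf4 measured 8.32 with H2O2 and 8.53 with paraquat against 7.39 and 7.28, differences of 0.99 and 1.19. Ddit3 measured 9.42 and 8.69 against 7.67 and 7.20, differences of 1.98 and 1.25, and Atf3 differed by 1.31 and 1.26. Asns measured 11.37 and 10.91 against 9.83 and 10.28, and differed by 1.31 and 0.86. Slc7a11 measured 8.61 and 8.04 against 7.90 and 6.86, and Phgdh 7.61 and 6.59 against 6.49 and 6.11, so that both vehicles lay below both oxidant arrays for all of these genes. The threonine ligase Tars measured 9.55 and 9.04 against 7.99 and 8.24.

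Few members departed from this. With H2O2, Cbs alone was not above both vehicles, so 39 of 40 were, beside 33.2% of all genes. With paraquat Cth, Eif4ebp1, Psat1 and Wars were not, so 36 of 40 were, beside 40.5%. The difference exceeded the gap between the vehicle arrays for 36 members with H2O2 (19.2% of all genes) and 33 with paraquat (21.2%). Of the 100 genes with the largest difference upward, members made up 20 with H2O2 and 7 with paraquat.

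The vehicle arrays differed from each other. Member values of vehicle 1 minus vehicle 2 ran from -1.32 (Slc7a3) to 1.70 (Eif4ebp1), and 8 of 40 members were apart by 1.5-fold, beside 36.5% of all genes. Pan-neuronal sums were 15991 and 29104 in vehicles 1 and 2, fibroblast and meningeal sums 8384 and 3033, and proliferation sums 4407 and 1899; the pan-neuronal sum was 23993 with H2O2 and 28107 with paraquat. Against either vehicle alone, 35 members were higher with H2O2 and 0 lower, beside 21.5% of all genes higher against vehicle 1 and 5.46% against vehicle 2. With paraquat, 28 were higher and 1 lower against vehicle 1 alone, beside 26.8% of all genes higher, and 29 and 0 against vehicle 2 alone, beside 5.1%. Astrocyte markers were lower by 1.5-fold in 10 of 17 cases and higher in 1 with H2O2, and lower in 1 and higher in 4 with paraquat. Proliferation markers were lower in 9 of 11 cases on both arrays, fibroblast and meningeal markers in 6 of 9 with H2O2 and 5 of 9 with paraquat, and excitatory neuron markers were higher in 2 and 6 of 9. Their part in the member differences was not tested.

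Related lists showed which neighbours moved beside the members. Other genes linked to ATF4 or CHOP were higher by 1.5-fold in 16 of 21 cases with H2O2 and 12 of 21 with paraquat, among them the branched-chain aminotransferase Bcat1 (1.79 and 1.15) and the mitochondrial carboxykinase Pck2 (1.55 and 1.09). The phosphatase subunit Ppp1r15a, which reverses eIF2 phosphorylation, was higher by 1.83 and 1.45. Of 19 genes of the unfolded protein response, 2 were higher and 3 lower with H2O2, and 1 higher and 4 lower with paraquat, with medians of -0.32 and -0.27. Herpud1 was higher on both (1.51 and 2.09), while the chaperone genes Sdf2l1 (-0.95 and -1.29) and Creld2 (-0.75 and -0.72) were lower on both. Mitochondrial ligases were higher in 0 and 1 of 15 cases, the other cytosolic ligases and scaffold genes in 2 and 1 of 9, and the other serine, glycine and folate genes in 0 and 0 of 15.

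With DRB the share of members higher and their median were near those of all genes, while the share lower was above that of all genes. Atf3 was far above its vehicle. On its 1 array, 5 of 40 were higher by 1.5-fold and 19 lower than its vehicle, beside 12.2% and 37% of all genes, and the median was -0.41 beside -0.342 over all genes. Atf3 measured 9.32 with DRB and 5.69 with vehicle, a difference of 3.63. Cebpb (1.12), Atf4 (0.80), Slc7a1 (0.66) and Eprs (0.60) were the other higher members. The lowest were Lars (-1.66), Tars (-1.49), Xpot (-1.49), Aldh1l2 (-1.40) and Shmt2 (-1.31). Chac1 (-0.96), Ddit3 (-0.99), Slc7a11 (-0.85) and Asns (-0.67) were lower too, and Phgdh (0.21) was within 1.5-fold. With the arrays quantile normalized anew, 6 were higher and 17 lower, beside 13.5% and 33% of all genes. The endoplasmic reticulum kinase Eif2ak3 was higher (1.38). Astrocyte sums were 2119 with DRB and 7762 with vehicle.

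Few members passed 1.5-fold with topotecan for 24 h, on its 1 array. Atf3 (1.21), Cth (0.85) and Sesn2 (0.65) were higher by 1.5-fold and 0 were lower, 3 of 40 beside 4.63% higher and 5.28% lower among all genes. The next were Aldh1l2 (0.57) and Psph (0.49), and the lowest Atf4 (-0.35), Slc7a11 (-0.35) and Got1 (-0.20). Chac1 (-0.07), Phgdh (-0.01), Ddit3 (0.29) and Asns (0.40) were within 1.5-fold. After washout no member differed by 1.5-fold in either direction, beside 0.398% higher and 0.421% lower among all genes. The largest values were Mthfd1l (0.48), Mthfd2 (0.44), Slc7a11 (-0.51) and Slc7a3 (-0.37), and Atf3 stood at 0.23 and Atf4 at -0.02. Both arrays share their 2 vehicles with irinotecan. Against vehicle 1 alone, 2 members were higher and 1 lower at 24 h, beside 5.36% and 5.76% of all genes. After washout 1 was higher and 1 lower, beside 0.917% and 0.932%.

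Levels over all members can be set beside each other by array. The mean member level minus the mean of all genes was 1.73 with H2O2 and 1.29 with paraquat beside 0.54 and 0.38 in their vehicles, and 0.64 in each ICRF-193 array beside 0.86 to 0.91 in the vehicles. Chac1 was lower with ICRF-193, topotecan at 1 µM and irinotecan, and had the largest difference upward of all genes with both oxidants. Slc7a11 was lower with the same 3 drugs, by 1.44-fold, 2.77-fold and 2.15-fold, while on the 1000 nM array of the dose series it was above the vehicle mean by 0.98. With those 3 drugs Slc7a11 was read from the brighter of 2 probe sets. With their mean it did not pass with ICRF-193. With topotecan at 1 µM and irinotecan the mean was under the brightness limit and was not tested. Only Mthfd1l, with an annotated span of 194 kb, and Slc7a11, of 134 kb, exceed 100 kb among the members. Over these 2 genes the median difference was -1.19 with topotecan at 300 nM, -0.43 with ICRF-193, -0.79 with topotecan at 1 µM and -0.93 with irinotecan, and over the shorter members -0.19, -0.21, -0.07 and -0.04. At 1 µM Mthfd1l differed by -0.107 only and did not pass. The knockdowns did not share the pattern, with -0.02 beside -0.23 for Top1 shRNA and -0.37 beside -0.36 for Top2b shRNA. With 2 genes this is a description.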

How the data were processed

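RNA was measured on 56 Affymetrix arrays of 3 types. The authors deposited linear intensity values per probe set, made with Affymetrix Expression Console and RMA per the submitters' processing notes; versions are not given in the sources used here. Normalization within separate sets can hold differences between sets in the level of all genes, so comparisons stay within an experiment. That does not remove such a difference in the shRNA experiment. There the mean intensity was 177.6 to 180.3 in replicate 1 and 137.8 to 143.1 in replicates 2 and 3. The main shRNA fit held no term for it. Intensities were turned to log2 here from the deposited values. Each gene took its brightest probe set naming 1 gene symbol (34958, 21218 and 23521 probe sets on the 3', earlier and later arrays), matched through GEO's platform annotation, and genes under the 40th percentile of brightness were left out (log2 limits 7.04, 6.02 and 5.01). Groups came from sample titles; some descriptions name another drug than the title, and titles were followed. Number of arrays limits the precision.

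Differences were tested with limma 3.58.1 in R 4.3.3 (lmFit and eBayes, 2-sided, Benjamini-Hochberg over all kept genes, threshold 0.05), within the groups compared, with the 9 shRNA arrays in 1 fit and the dose trend over ranked doses. The script was checked on simulated data. Single arrays were compared at 1.5-fold without a test. Overlap of groups in the tested comparisons was described gene by gene, without a count over all genes. Same-numbered arrays correlated in their deviations from the group means by 0.38, 0.23 and 0.38 for ICRF-193, where other numbers reached at most 0.05, which pairs them. For Top2b shRNA they correlated by 0.45, 0.39 and 0.35, where other numbers reached -0.39, 0.40 and 0.31. That sets replicate 1 apart but does not tell replicates 2 and 3 apart. This comes from the data, as the labels give numbers only. For the others at least 1 pair was not above 0.1. Alternatives were no filter, the mean of probe sets, log2(intensity + 16), new quantile normalization, the replicate block, and leaving out arrays.

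The members and all gene and marker lists were chosen with earlier results of these data known. In each tested comparison up to 12 members past the threshold with the largest change are named, Atf4, Atf3, Ddit3, Chac1, Trib3, Asns, Phgdh and Slc7a11 always where measured, up to 4 genes of each related list, and in single arrays the 5 largest differences in each direction; other members were named after their values were seen. Promoter sequences and spans are RefSeq's (GRCm38.p6). The array annotation's genome build is not given in the sources used here.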

Additional observations from a re-analysis of the deposited data

Results flagged for a closer look

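Of 80 groups of 6 arrays examined (40 members in the topotecan 1 µM and vehicle arrays), 11 held a lone highest or lowest array whose gap to its neighbour was large for the group's range by Dixon's criterion. Chance gives about 1 in 20 groups. Of the 11, 10 lay in an array numbered 4. Topotecan array 4 was lowest for Sesn2 (8.32) and Eif4ebp1 (8.63) and highest for Phgdh (6.64) and Slc7a3 (5.78). Vehicle array 4 was highest for Cebpb (5.70) and lowest for Stc2 (5.73), Got1 (10.24), Slc7a3 (5.00), Gars (9.68) and Mars (8.06). Vehicle array 6 was highest for Slc38a2 (9.74). Values are log2 intensities. The counts without array 4 of both groups stand beside the 1 µM comparison.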

How the results depend on the processing

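Counts of members past the threshold, and medians, gave 162 results under settings other than single left-out arrays. Of these, 134 kept their size and 28 moved. In the tested comparisons a count was taken to keep its size within 1.5 times of the main one. A median was taken to keep it if it shifted by less than the spread between arrays. No member that passed in a tested comparison reversed its direction, but medians of the dose series changed sign with the vehicle arrays used. Where a value moved, the cause was not tested.

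With the replicate number as a block, topotecan at 1 µM had 3 members higher and 7 lower (4227 genes in all), Top1 shRNA 3 higher and 5 lower (3124 genes) and Top2b shRNA 1 higher and 7 lower (1352 genes). Irinotecan had 2 higher and 7 lower, beside 9.61% and 9.19% of all genes. Its block fit held replicates 1 and 2 only, so 1 treated array was left out as well. The block gave 33 lower members with ICRF-193 (2889 genes), 0 with topotecan at 300 nM (1 gene), and 115 genes for the difference between those drugs. In 1 µM topotecan, 300 nM topotecan, irinotecan and Top1 shRNA the numbers did not pair the arrays, and in Top2b shRNA they set apart replicate 1 only. With no filter on dim genes, ICRF-193 had 20 lower members of 43, irinotecan 2 higher and 5 lower, and both shRNA comparisons 0 lower. The mean of the probe sets gave 1 lower member with topotecan at 300 nM and 1 in its difference from ICRF-193. Replicates 2 and 3 alone gave 9 higher and 13 lower with Top1 shRNA (5944 genes, beside 1579), 4 and 14 with Top2b shRNA (3003, beside 414) and 8 higher in their direct comparison (1888, beside 0). The dosed arrays alone gave 8 lower (452 genes, beside 390), and 12 (834 genes) without the 1000 nM array. Against vehicle 1 alone, 1 member was lower with topotecan for 24 h, 1 higher and 1 lower after washout, and 1 lower with paraquat. Against vehicle 3 alone, the dose medians were -0.032 at 3 nM, -0.046 at 30, -0.181 at 150 and -0.184 at 300 nM.

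Leaving out 1 array at a time gave 0 to 4 lower members with topotecan at 300 nM, 19 to 30 with ICRF-193, and 4 to 5 higher and 9 to 15 lower with topotecan at 1 µM. Irinotecan had 1 to 3 higher and 3 to 10 lower. Top1 shRNA had 0 to 1 higher and 0 to 3 lower, and Top2b shRNA 0 to 1 higher and 0 to 5 lower. The dose trend had 0 to 2 lower, and the difference of the drugs on the 3' arrays 0 to 1 higher and 0 to 2 lower. The genes called in all ran from 90 to 498 for topotecan at 300 nM, 885 to 2822 for ICRF-193, 1780 to 3437 for irinotecan, 450 to 2486 for Top1 shRNA, 0 to 582 for Top2b shRNA, 42 to 815 for the dose trend and 136 to 1048 for the difference of the drugs. With no filter they were 1286 for ICRF-193, 2226 for irinotecan, 614 for Top1 shRNA, 0 for Top2b shRNA and 244 for the dose trend, and with log10 dose 217.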
